A study of Mus musculus with 6 samples.

Results

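Collagen, laminin and meningeal matrix transcripts were examined in mouse brain, in Dap12 knockouts set against heterozygotes. The members were all probe sets (sets of short oligonucleotides for 1 transcript) with 1 gene symbol that named a collagen chain, a laminin chain, or Dcn, Lum, Ptgds, Fn1, Fmod, Ogn or Nid1. No measured value entered that rule. They came to 119 of 45037 probe sets, from 59 of 18193 genes. Dap12, encoded by Tyrobp, is a signalling adaptor of microglia, on which Trem2 and related receptors depend. The knockout arrays, called Dap12-ko here, were from the samples 67, 68 and Ko1, and the heterozygous arrays, called Dap12-het, from 75, 76 and 81. All mice were 1 month old, and the design places the tissue in the midbrain, with diencephalon and basal ganglia. The labels describe every sample as Dap12-deficient mouse brain and set the groups apart by Dap12-ko or Dap12-het, so no wild-type mouse was compared. The design names 3 mice of each genotype, and the labels give no sex, strain or litter.

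The brain holds little interstitial matrix, and its collagens lie mostly at its borders and vessels. Collagens are trimers of chains that wind into a triple helix. Fibril-forming collagens are made by fibroblasts of the meninges and of large vessels, while collagen IV, the laminins and nidogen build the basement membranes beneath endothelium, pericytes and the outer processes of astrocytes. Decorin, lumican, fibromodulin and osteoglycin, encoded by Dcn, Lum, Fmod and Ogn, are small leucine-rich proteoglycans that bind fibrils, and in brain Dcn and Lum mark meningeal and perivascular fibroblasts. Ptgds encodes lipocalin-type prostaglandin D synthase, an enzyme and carrier protein that meninges, choroid plexus and oligodendrocytes secrete.

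Deposited signals were linear intensities with a 2% trimmed mean of 100 on every array. Median signals were 24.68 to 40.41 on Dap12-ko arrays and 20.34 to 21.98 on Dap12-het arrays. Tyrobp read 2.277, 23.67 and 12.89 on Dap12-ko 67, 68 and Ko1, against 70.67, 68.19 and 77.6 on Dap12-het 75, 76 and 81 (log2 change -1.68 ± 0.34, limma adjusted p = 0.0461). Of the glial markers, 12 of 12 astrocyte and 14 of 14 oligodendrocyte genes measured passed the level filter described next, which cannot tell brain regions apart. Of 22518 probe sets tested, 466 changed at an adjusted p of 0.05. That count was 5433 without Dap12-ko Ko1, 29 without Dap12-het 76, and 0 without any other array left out alone (limma, with 2877 to 3949 at an unadjusted p under 0.05).

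Most members were dim. Only probe sets with a mean signal over the 6 arrays above the median of 26.73 were tested, and 40 of the 119 members (33.6%) passed, from 29 of the 59 genes. Some passed only through Dap12-ko, with Dap12-het means under that level. They were 1 probe set each of Col19a1 (19.9), Col1a1 (21.2), Col1a2 (18.2), Col5a3 (23.8), Lama5 (15.3) and Fmod (19.2), and both of Ogn (24.8 and 15). The same held for some genes of the lists below, such as Ptgdr and Ndufa4l2. For such probe sets the filter favoured changes above 0. The members just inside and just outside that level were a Col1a1 probe set with a mean of 28.9 and a Col26a1 probe set with a mean of 26.6. For the other 30 genes no probe set was bright enough. They included the fibril-associated chains Col12a1 and Col14a1, the multiplexins Col15a1 and Col18a1, which sit in vascular basement membranes, and the laminin chains Lama1, Lama3, Lama4, Lamb3 and Lamc3. Lum, with 1 probe set, read 22.6, 23.2 and 30.84 on Dap12-ko arrays and 23.51, 26.26 and 12.65 on Dap12-het arrays, and was not tested.

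No member passed the test on all 6 arrays. Of the 40 tested, 0 were higher and 0 were lower at an adjusted p of 0.05 (limma), against 2.07% of all probe sets tested, 1.32% higher and 0.751% lower. An unadjusted p under 0.05 was reached by 5 members (12.5%), from Ptgds, Ogn, Col19a1, Lama5 and Col1a1, against 21.2% of all probe sets. Among these 5, the probe sets of Ogn, Col19a1 and Col1a1 passed the level filter only through Dap12-ko. Of the 40, 24 changes lay above 0 and 16 below, and their log2 changes had a median of 0.13, where all probe sets tested had 0.00. The median took the other sign with quantile normalization (-0.07, against -0.06 over all) and with arrays centred on their medians (-0.27, against -0.40 over all). The groups did not overlap, with Dap12-ko higher, for 7 members (17.5%) against a background of 15.1%. They did not overlap with Dap12-ko lower for 2 (5%) against 12.5%. With 3 arrays against 3 the smallest exact permutation p is 0.1, which such members reach. With array weights 3 of the 40 members were called, against 4971 of all 22518 probe sets tested. Without Dap12-ko Ko1 3 members were called, against 5433 of all 22518. These members, and those called without Dap12-ko 67 and 68 together, are named with their genes. On all 6 arrays the members' counts lay near or under the background. In bulk tissue, fewer cells of a type and less RNA per cell cannot be told apart, here and in what follows.

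**Figure D1:**
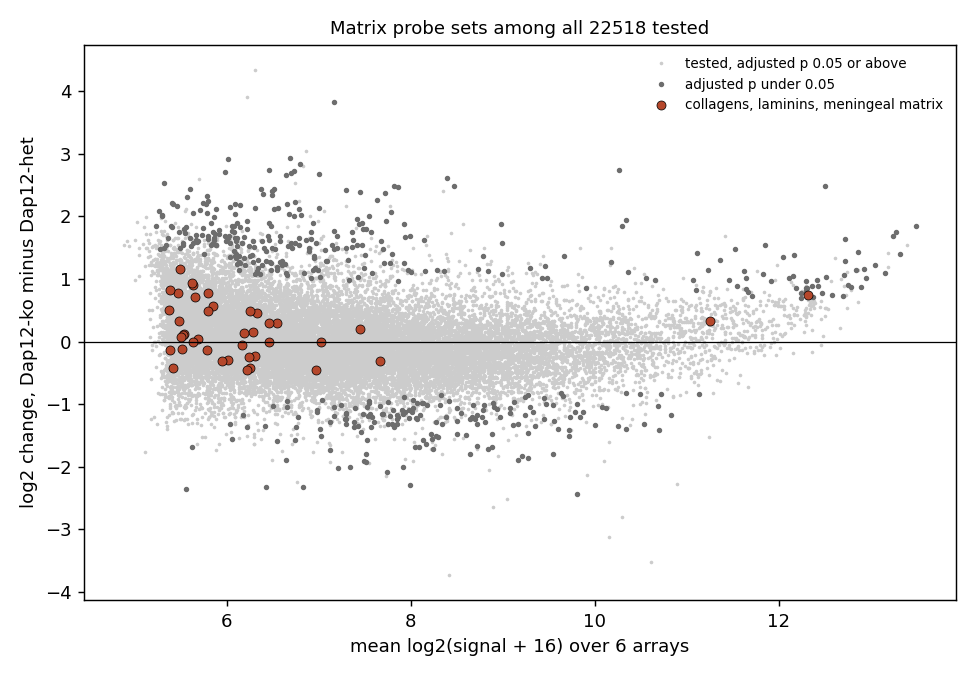
Log2 change (Dap12-ko minus Dap12-het, vertical) against mean log2(signal + 16) over the 6 arrays (horizontal) for all 22518 probe sets tested. Light grey points did not pass an adjusted p of 0.05, dark grey points did, and red points are the 40 members, none of which passed and whose changes run from -0.46 to 1.16.

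Members varied more between Dap12-ko arrays than between Dap12-het arrays. The SD of log2(signal + 16) had a median of 0.491 within Dap12-ko and 0.284 within Dap12-het over the 40 members, and was larger within Dap12-ko for 34 of them. Over all probe sets tested those medians were 0.373 and 0.192, and 77.2% had the larger SD within Dap12-ko. The size of the change, without its sign, had a median of 0.308 for members and 0.327 for all. Against the Dap12-het mean, the median member stood at 0.39 on Dap12-ko 67, -0.19 on 68 and 0.24 on Ko1, while the median of all probe sets tested was 0.04, 0.03 and 0.01. Dap12-ko 67 held the highest signal of the 6 arrays for 13 members (32.5%, against 23.6% of all probe sets tested) and the lowest for 2 (5%, against 21.9%). Ko1 held the highest for 10 (25%, against 19%) and the lowest for 10 (25%, against 21.7%). Dap12-het 81 held the lowest for 12 (30%, against 18.6%).

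**Figure D2:**
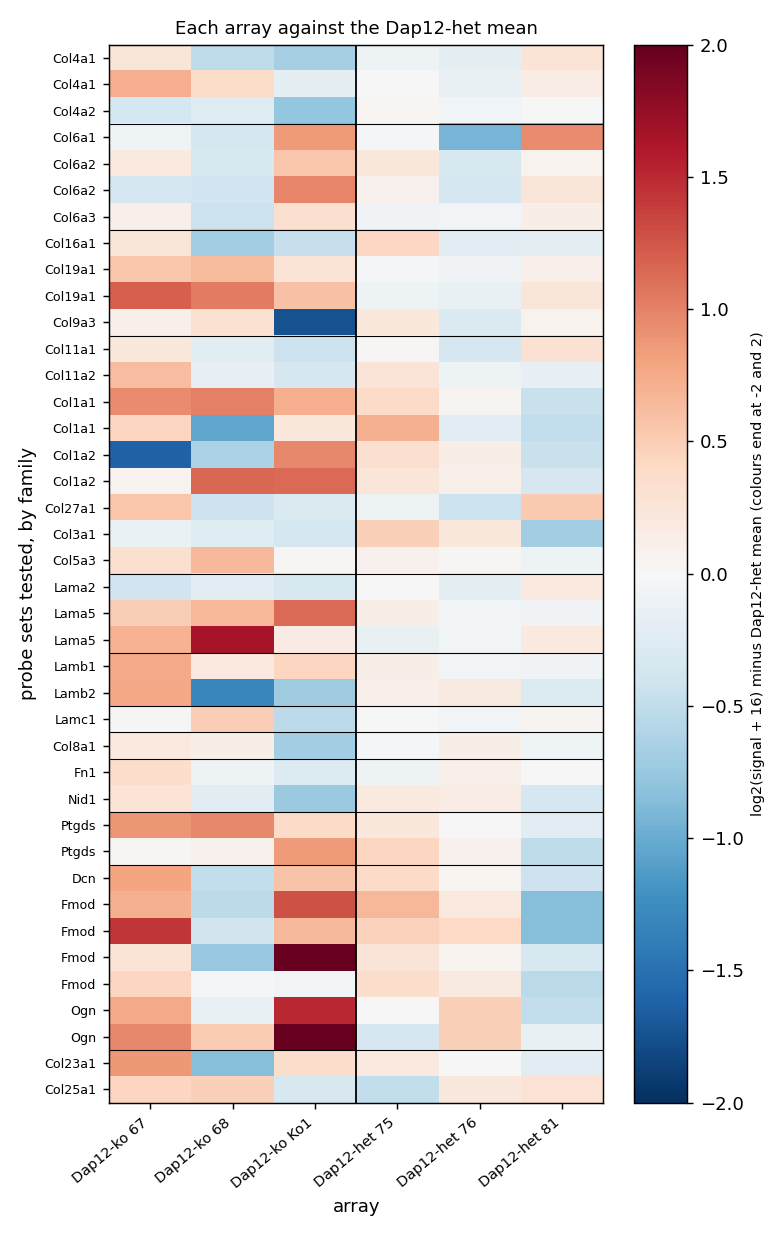
Each of the 40 tested members (rows, grouped by family) on each array (columns), as log2(signal + 16) minus the Dap12-het mean, with red above and blue below it and colours ending at -2 and 2. The Dap12-ko columns differ from each other, with a median of 0.39 on 67, -0.19 on 68 and 0.24 on Ko1.

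Among the fibril-forming collagens, 9 probe sets of 7 genes were tested, 0 passed (limma; 1 at an unadjusted p under 0.05), and the median change was -0.05, between -0.43 and 0.90. Collagen I, the main fibril of meninges and bone, is built from the chains of Col1a1 and Col1a2, and each gene's probe sets disagreed. The brighter Col1a1 probe set read 54.03, 57.11 and 44.2 on Dap12-ko 67, 68 and Ko1, against 31.31, 21.68 and 10.68 on Dap12-het 75, 76 and 81. These did not overlap, and the log2 change was 0.90 ± 0.30 (limma adjusted p = 0.145). It was 0.57 with quantile normalization and 0.50 with arrays centred on their medians. The other Col1a1 probe set read 42.7, 5.136 and 34.33 against 54.91, 21.51 and 14.79, overlapping widely (-0.13 ± 0.49, limma adjusted p = 0.905).

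The brighter Col1a2 probe set read 12.73, 40.7 and 155.5 on Dap12-ko arrays and 93.49, 80.54 and 48.65 on Dap12-het arrays. Both its lowest and its highest value were Dap12-ko (-0.43 ± 0.57, limma adjusted p = 0.702), and it stood at 0.16 without Dap12-ko 67. The next Col1a2 probe set read 19.42, 58.96 and 57.74 against 23.79, 20.03 and 10.76, with Dap12-ko 68 and Ko1 high and 67 within the Dap12-het range (0.78 ± 0.38, limma adjusted p = 0.276). Col3a1, the chain of collagen III, which shares fibrils with collagen I in soft tissue, read 59.11, 53.66 and 48.42 on Dap12-ko arrays. On Dap12-het arrays it read 99.21, 79.18 and 35.08, so that the Dap12-ko values lay inside the Dap12-het range (-0.24 ± 0.32, limma adjusted p = 0.696). The other fibril-forming genes tested, Col5a3, Col11a1, Col11a2 and Col27a1, changed by -0.14 to 0.33.

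Collagen IV, the sheet-forming collagen of all basement membranes, was tested through 3 probe sets. Its common form joins the chains of Col4a1 and Col4a2. The brighter Col4a1 probe set read 253.1, 143.3 and 126.6 on Dap12-ko arrays and 196.3, 183 and 259.2 on Dap12-het arrays. The ranges overlapped (-0.31 ± 0.28, limma adjusted p = 0.558). The dimmer Col4a1 probe set read 123.3, 92.5 and 57.17 against 68, 59.86 and 77.81 (0.30 ± 0.27, limma adjusted p = 0.568), with the other sign when arrays were centred on their medians (-0.11). On both, Dap12-ko 67 gave the highest and Ko1 the lowest value within Dap12-ko. Col4a2 read 99.79, 107.5 and 70.34 on Dap12-ko arrays and 135.1, 125.7 and 132.6 on Dap12-het arrays. It was lower on every Dap12-ko array than on any Dap12-het array, by -0.46 ± 0.21 (limma adjusted p = 0.259), and its change lay between -0.86 and -0.30 over 17 alternatives with 0 calls. Col4a3, Col4a4, Col4a5 and Col4a6, which form collagen IV networks best known from kidney and lens, were too dim to be tested.

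Col4a1, on the minus strand, and Col4a2, on the plus strand, stand head to head, and their annotated transcripts overlap at the 5′ ends. In RefSeq (GRCm38.p6) their annotated starts lie 21 bases apart, and their promoter windows, 300 bases each, share 78 bases on opposite strands. The stretch of 22 bases from the start of Col4a2 to the start of Col4a1 lies within both annotated transcripts, not before their starts. It is shown because both genes' windows hold it, and capitals mark a GC box, GGGCGG.
Col4a1 and Col4a2 (chr8:11312805-11312826, plus strand): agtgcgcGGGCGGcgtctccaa
Other members that are neighbouring protein-coding genes are Col4a3 and Col4a4, Col4a5 and Col4a6, Col6a1 and Col6a2, Col6a4 and Col6a5, Col3a1 and Col5a2, Col9a1 and Col19a1, and Dcn and Lum, which makes 8 neighbouring sets over 59 genes placed. Both genes had a tested probe set only for Col4a1 with Col4a2 and for Col6a1 with Col6a2.

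Collagen VI forms beaded filaments beside basement membranes and is made by fibroblasts and pericytes. Of its 7 probe sets 4 were tested, and the changes ran from -0.01 to 0.16. Col6a1 read 49.1, 38.29 and 109.7 on Dap12-ko arrays and 52.64, 20.41 and 118 on Dap12-het arrays (0.14 ± 0.49, limma adjusted p = 0.901). Both groups thus held 1 array above 100. The brighter Col6a2 probe set read 68.53, 43.65 and 92.38 against 69.95, 43.41 and 61.5 (0.16 ± 0.29, limma adjusted p = 0.793), and Col6a3 read 37.08, 20.8 and 45.75 against 31.4, 31.62 and 38.3. Within Dap12-ko, Ko1 was highest and 68 lowest for all 4 probe sets, including the dimmer one of Col6a2. The changes of Col6a1 and Col6a2 took the other sign with quantile normalization (-0.15, and -0.05 and -0.26) and with arrays centred on their medians.

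Of the fibril-associated collagens, which decorate fibrils rather than form them, 4 of 24 probe sets were tested. Col19a1, the chain of collagen XIX, is made by some neurons in mouse brain. Its probe set with the smallest p read 65.22, 56.93 and 37.34 on Dap12-ko arrays and 17.21, 16.3 and 26.21 on Dap12-het arrays, with no overlap (0.93 ± 0.29, limma adjusted p = 0.123). With quantile normalization that change was 0.65, and with arrays centred on their medians 0.53. The second tested Col19a1 probe set read 52.92, 57.01 and 40.6 against 30.26, 28.79 and 34.35, again without overlap (0.48 ± 0.25, limma adjusted p = 0.304). In both, Ko1 was the lowest Dap12-ko array, and without Ko1 the first was called (1.11, limma adjusted p = 0.0248). The fit without Ko1 called 5433 of all 22518 probe sets. Col16a1 changed by -0.31 ± 0.33 (limma adjusted p = 0.629). Col9a3 read 77.01, 90.92 and 9.976 on Dap12-ko arrays and 84.76, 55.01 and 75.78 on Dap12-het arrays, so that Ko1 alone lay below the Dap12-het range (-0.45 ± 0.50, limma adjusted p = 0.641). Among the transmembrane collagens, Col25a1, a neuronal collagen whose shed part binds amyloid, read 204.1, 210.8 and 114.7 against 99.21, 172.1 and 183.7 (0.20 ± 0.30, limma adjusted p = 0.745), with the other sign when arrays were centred on their medians (-0.20). Col23a1 changed by 0.12 ± 0.44 (limma adjusted p = 0.903), and Col8a1, a network-forming chain of vessels, by -0.12 ± 0.33 (limma adjusted p = 0.864).

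**Figure D3:**
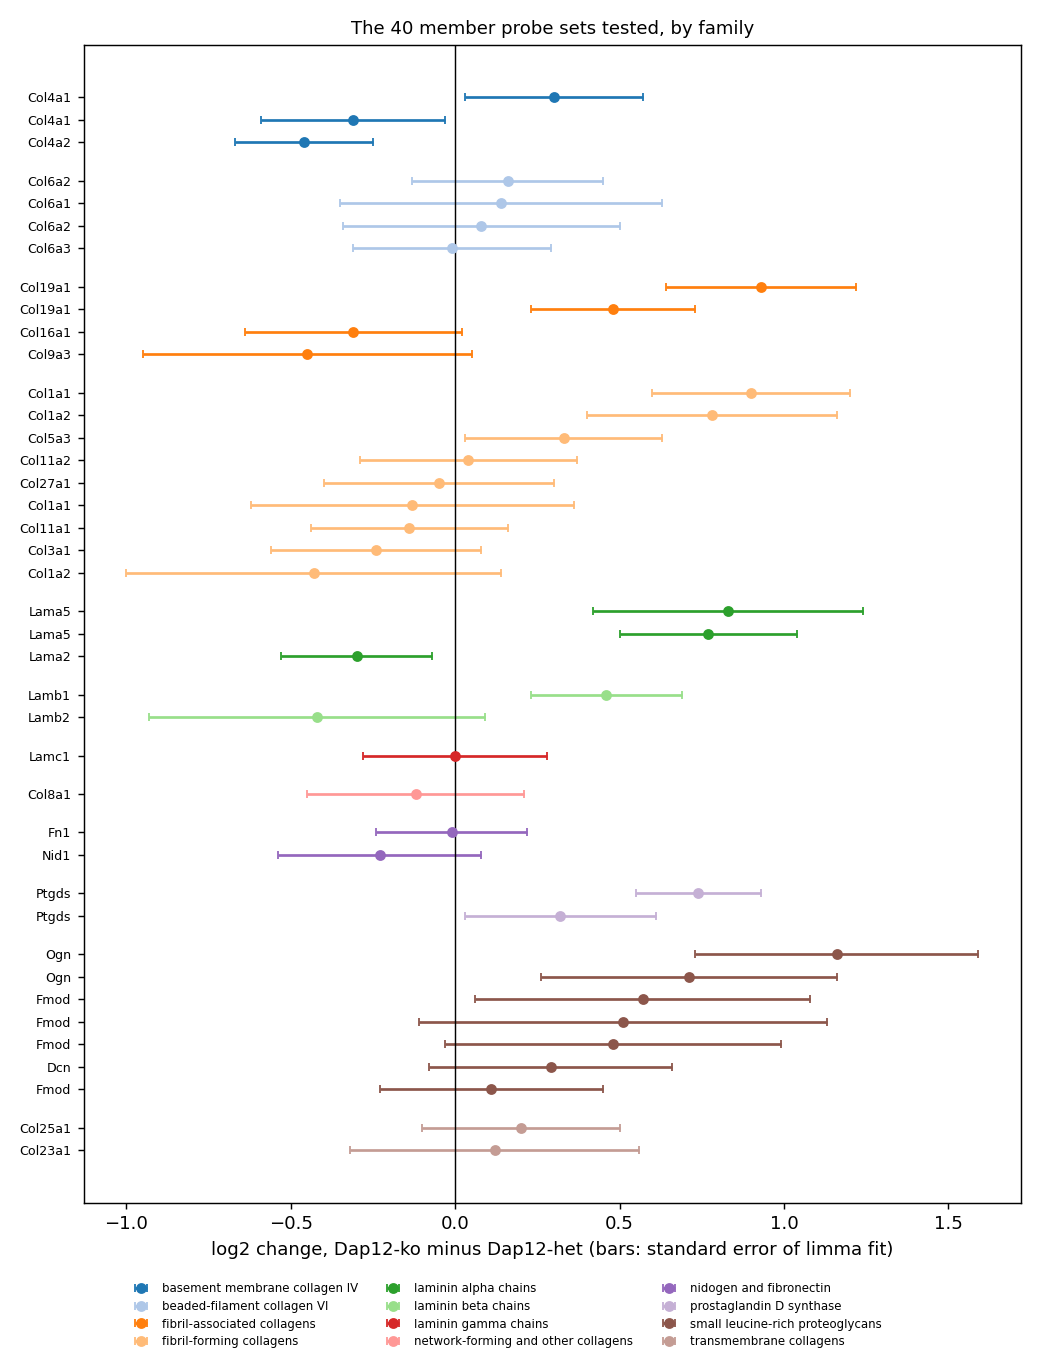
Log2 change (Dap12-ko minus Dap12-het, horizontal) of the 40 members tested, with bars for the standard error of the limma fit, grouped and coloured by family, 1 row per probe set. The 7 probe sets of Dcn, Fmod and Ogn and both of Ptgds lie above 0 here, but all 4 of Fmod, Dcn and the dimmer one of Ptgds turn negative with array weights, and 1 of Fmod also with quantile normalization and, with Dcn and the dimmer one of Ptgds, with arrays centred on their medians.

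Laminins are trimers of an alpha, a beta and a gamma chain that organise basement membranes. Of 19 probe sets 6 were tested, with 0 calls (limma; 1 at an unadjusted p under 0.05), and 3 changes lay above 0 and 3 below. Lama5, an alpha chain of mature brain vessels, read 44.52, 52.19 and 77.64 on Dap12-ko arrays and 30.68, 25.41 and 24.71 on Dap12-het arrays. There was no overlap (0.77 ± 0.27, limma adjusted p = 0.155), and the change lay between 0.36 and 1.13 over 16 alternatives with 0 calls. A second Lama5 probe set read 34.26, 81.2 and 18.99 against 12.13, 13.93 and 19.82. Its Dap12-ko array Ko1 fell inside the Dap12-het range (0.83 ± 0.41, limma adjusted p = 0.283), and it was called without Ko1 (1.17, limma adjusted p = 0.0484). The probe set called in that fit, as were 5433 of all 22518, was not the one whose groups were apart.

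Lama2, an alpha chain that pericytes and fibroblasts deposit among other cells, read 38.9, 45.68 and 41.48 on Dap12-ko arrays and 54.73, 47.37 and 65.5 on Dap12-het arrays. It was lower on all Dap12-ko arrays, with 68 and Dap12-het 76 nearly level (-0.30 ± 0.23, limma adjusted p = 0.489). Lamb1 read 100.7, 62.51 and 76.76 against 58.69, 50.15 and 49.78 on its brightest probe set, without overlap (0.46 ± 0.23, limma adjusted p = 0.293). Its change lay between 0.06 and 0.60 over 16 alternatives with 0 calls. Lamb2, the beta chain of mature vessels and of synaptic laminins, read 68.35, 3.923 and 14.2 against 36.92, 39.77 and 25.02 (-0.42 ± 0.51, limma adjusted p = 0.675). It stood at 0.03 without Dap12-ko 68, whose value was the lowest. Lamc1, the gamma chain found in most laminins, read 73.79, 107.9 and 45.3 against 72.09, 68.59 and 75.75, with the Dap12-het values inside the Dap12-ko range (0.00 ± 0.28, limma adjusted p = 0.999).

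Fn1, fibronectin, a glycoprotein of plasma and fibroblasts, read 151, 105 and 91.24 on Dap12-ko arrays and 106, 123.8 and 113.8 on Dap12-het arrays (-0.01 ± 0.23, limma adjusted p = 0.984). Nid1, nidogen, which links laminin to collagen IV, read 87.09, 57.94 and 35.31 against 82.05, 79 and 51.09 (-0.23 ± 0.31, limma adjusted p = 0.709). Both were highest on Dap12-ko 67 and lowest on Ko1, as was the brighter Col4a1 probe set within Dap12-ko.

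The small leucine-rich proteoglycans lay above 0 on all 7 probe sets tested, but 5 of them, Dcn (-0.20) and all 4 of Fmod (-0.32 to -0.05), lay below 0 with array weights. The dimmest Fmod probe set also turned negative with quantile normalization (-0.26), with arrays centred on their medians (-0.29, as did Dcn at -0.11), without Dap12-ko 67 (-0.05), without Dap12-het 81 (-0.16) and without Dap12-ko 67 and 68 together (-0.05). There were 0 calls (limma; 1 at an unadjusted p under 0.05), and the median was 0.51. Dcn read 121.5, 40.71 and 102.9 on Dap12-ko 67, 68 and Ko1, against 87.63, 65.95 and 43.58 on Dap12-het 75, 76 and 81 (0.29 ± 0.37, limma adjusted p = 0.684). Dap12-ko 68 was below every Dap12-het array and the other Dap12-ko arrays were above them. The brightest Fmod probe set read 89.7, 28.55 and 138.9 against 86.13, 57.29 and 19.61. Here too 68 was lowest within Dap12-ko and 81 within Dap12-het (0.48 ± 0.51, limma adjusted p = 0.626).

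Ogn, osteoglycin, had the largest change among the 40 members, though both Ogn probe sets passed the level filter only through Dap12-ko. Its dimmer probe set read 42.65, 26.9 and 105.5 on Dap12-ko arrays and 7.92, 25.85 and 11.15 on Dap12-het arrays (1.16 ± 0.43, limma adjusted p = 0.174). The groups did not overlap, though Dap12-ko 68 and Dap12-het 76 were nearly level. Its brighter probe set read 50.76, 19.46 and 96.1 against 23.72, 38.64 and 12.08, with Dap12-ko 68 inside the Dap12-het range (0.71 ± 0.45, limma adjusted p = 0.404). The summed signal of all 11 probe sets of Dcn, Fmod, Lum and Ogn was 596, 225 and 742 on Dap12-ko 67, 68 and Ko1, and 393, 359 and 149 on Dap12-het 75, 76 and 81. The groups overlapped, with Dap12-ko 68 below Dap12-het 75 and 76. In the fit without Dap12-ko 67 and 68, which leaves Ko1 as the lone knockout and assumes that it varies like the heterozygous arrays, 2 members were called. They were a dimmer Fmod probe set (1.99, limma adjusted p = 0.04) and Col9a3 (-1.74, limma adjusted p = 0.0417).

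**Figure D4:**
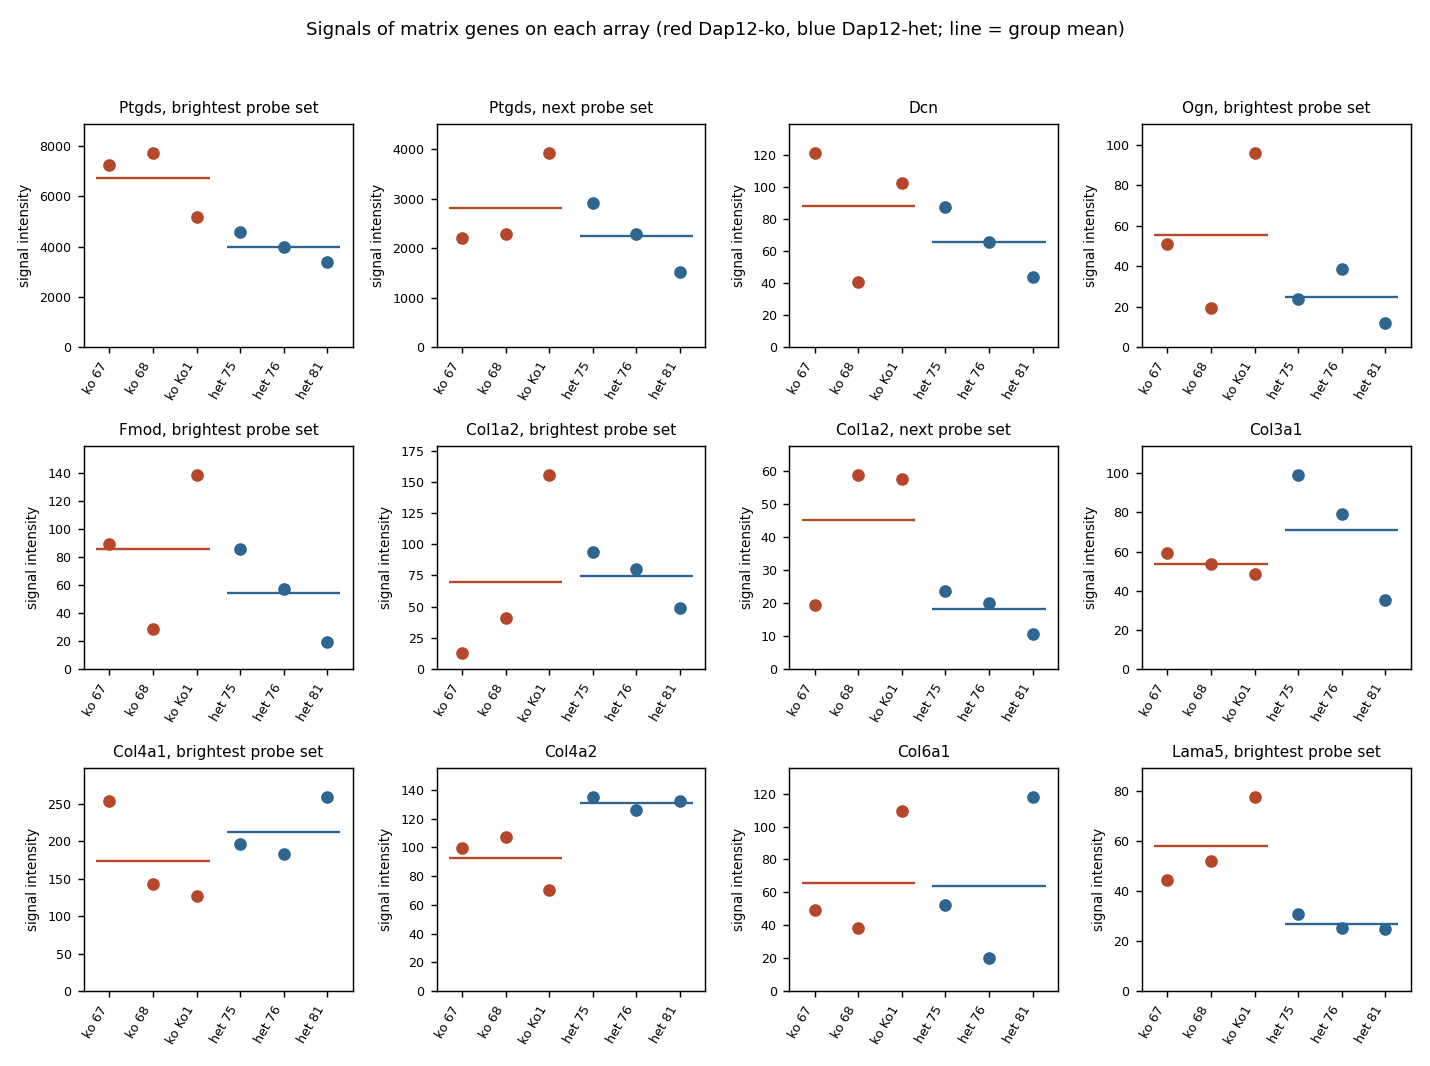
Signal intensity of 12 member probe sets on each array, Dap12-ko in red at left and Dap12-het in blue at right, with lines at the group means and axes from 0. Dcn, Ogn and Fmod are lowest within Dap12-ko on 68, the Col1a2 probe sets disagree, and Col4a2 is lower on all Dap12-ko arrays.

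Ptgds came closest to the threshold. Its brighter probe set read 7249, 7726 and 5160 on Dap12-ko 67, 68 and Ko1, and 4572, 3978 and 3373 on Dap12-het 75, 76 and 81 (6711 ± 1365 against 3974 ± 600, SD, n = 3 each). It was higher on every Dap12-ko array, with a log2 change of 0.74 ± 0.19 (limma adjusted p = 0.0844). The call was gained without Dap12-ko Ko1 (0.92, limma adjusted p = 0.00322) and with array weights (0.80, limma adjusted p = 0.00574). Those fits called 5433 and 4971 of all 22518 probe sets. With quantile normalization the change was 0.07 (limma adjusted p = 0.871), the highest of its adjusted p over 17 alternatives. The other Ptgds probe set read 2201, 2285 and 3923 against 2913, 2293 and 1508 (2803 ± 971 against 2238 ± 704, SD, n = 3 each). There Ko1 was the highest Dap12-ko array rather than the lowest, the groups overlapped, and the change was 0.32 ± 0.29 (limma adjusted p = 0.568), or -0.08 with arrays centred on their medians and -0.04 with array weights.

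Markers of the cell types that make Ptgds differed between arrays too. Choroid plexus markers, 15 measured, summed to 16886, 18604 and 862 on Dap12-ko 67, 68 and Ko1, and to 1231, 1948 and 4101 on Dap12-het 75, 76 and 81. Most of that sum was Ttr, transthyretin, the main secreted product of that epithelium, at 16070, 17640 and 401.6 against 621.6, 1539 and 3532. Of the 11 choroid plexus genes tested 0 passed (limma; 3 at an unadjusted p under 0.05), against 1.43% of genes called on their brightest probe set in either direction, and 9 changes lay above 0. Oligodendrocyte markers, 14 measured, summed to 71405, 56849 and 30987 against 25582, 24827 and 24325, with 2 of 14 higher and 0 lower, 6 at an unadjusted p under 0.05, and 10 changes above 0 and 4 below. Mbp alone gave 36160, 24720 and 11660 of the Dap12-ko sums and 5913, 6439 and 5799 of the Dap12-het sums. The genes past the threshold were Mbp, myelin basic protein (1.85 ± 0.35, limma adjusted p = 0.0388), and Mal, a myelin membrane protein (0.73 ± 0.15, limma adjusted p = 0.0457). Ndrg1, a protein of myelinating cells, was lower on every Dap12-ko array without passing (-0.87 ± 0.21, limma adjusted p = 0.0718), and Fa2h, Mag and Aspa stood at -0.24, -0.05 and -0.04. Within Dap12-ko, Ko1 was lowest in both sums and on the brighter Ptgds probe set, and highest on the other. Within Dap12-het, the choroid plexus sum rose from 75 to 76 to 81, whereas the oligodendrocyte sum and both Ptgds probe sets fell. The part of these cell types in the Ptgds values was not tested.

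**Figure D5:**
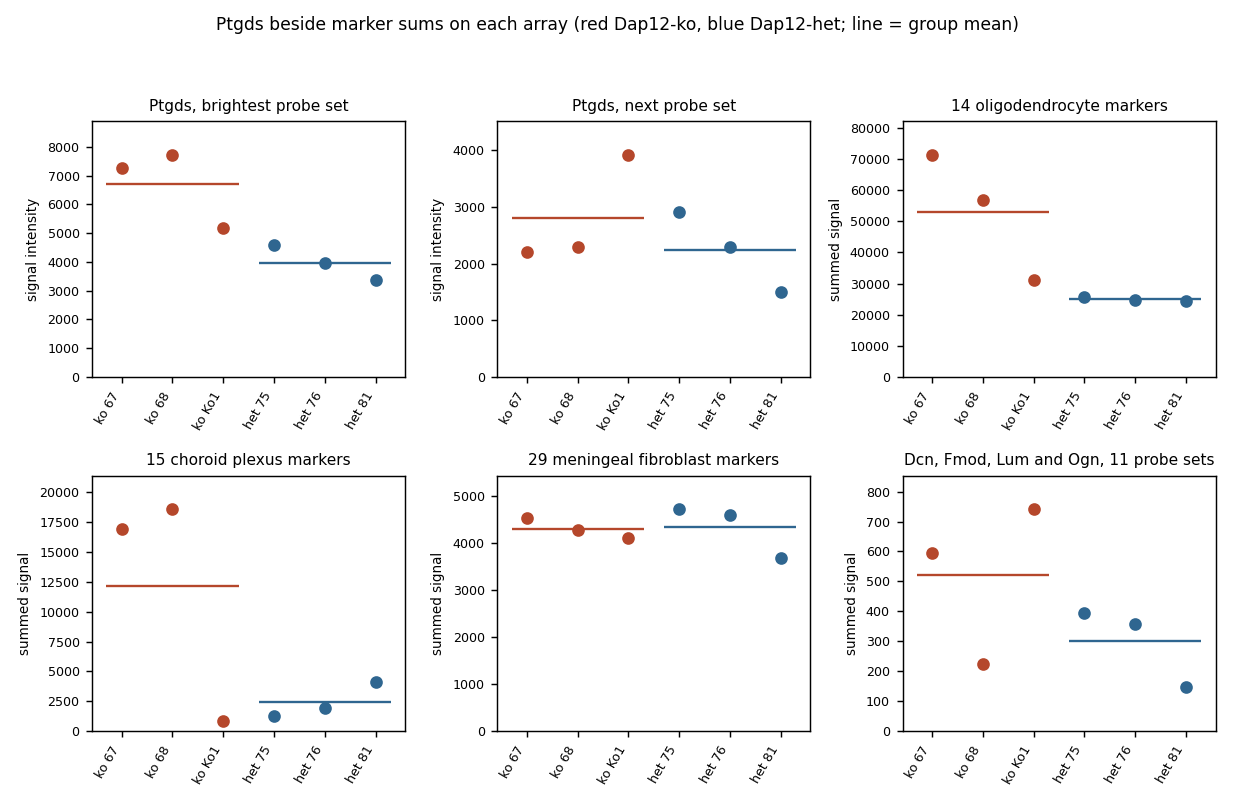
Signal of each Ptgds probe set and summed signal of oligodendrocyte, choroid plexus and meningeal fibroblast markers and of the small leucine-rich proteoglycans on each array, Dap12-ko in red at left and Dap12-het in blue at right, with lines at the group means. The oligodendrocyte sum and the brighter Ptgds probe set are lowest on Ko1 within Dap12-ko, whereas the other Ptgds probe set is highest there.

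The sum of meningeal fibroblast markers showed no such split. The 29 genes summed to 4098 to 4542 on Dap12-ko arrays and to 3692 to 4725 on Dap12-het arrays. Of 20 tested 0 passed (limma; 1 at an unadjusted p under 0.05), and the median change was 0.08. Beside this and the later lists stand 1.43% of 11446 genes called on their brightest probe set. An unadjusted p under 0.05 was reached by 21.2% of all probe sets tested. Some of the fibroblast markers, such as Zic1 and Gjb6, are also expressed by neurons or astrocytes. With means of 1227 and 556 over the 6 arrays, Zic1 and Gjb6 weigh most in the sum. Of the markers too dim to test, Foxd1 and Cdh1 were higher on every Dap12-ko array and Tbx18 was lower. Igfbp6, an insulin-like growth factor binding protein of fibroblasts, read 80.61, 66.69 and 71.14 against 37.34, 36.98 and 41.22 (0.70 ± 0.22, limma adjusted p = 0.12). Endothelial markers summed to 2012 to 2427 against 2226 to 2470, with 0 of 17 tested past the threshold (limma; 0 at an unadjusted p under 0.05). Pericyte and smooth muscle markers summed to 1008 to 1815 against 1277 to 1361, with 0 of 10 (limma; 2 at an unadjusted p under 0.05). Among these was Pdgfrb, the growth factor receptor of pericytes, at -0.75 ± 0.24 (limma adjusted p = 0.13). The other, Ndufa4l2, went up, at 79.4, 92.58 and 23.38 against 17.69, 37.25 and 4.989 (limma adjusted p = 0.217). Of the 10 pericyte and smooth muscle changes 5 lay above 0 and 5 below, with a median of 0.03. Markers of bone, cartilage, muscle and skin, which a dissection could carry over, summed to 357 to 529 against 234 to 247, with 0 of 6 tested past the threshold (limma; 2 at an unadjusted p under 0.05). Of 14 such genes measured, only these 6 were bright enough to test. Over all 22519 probe sets too dim to test, the groups did not overlap with Dap12-ko higher for 18.6% and lower for 2.33%. The part of bone, cartilage, muscle and skin in the collagen values was not tested. Astrocyte markers summed to 17724 to 18254 against 12480 to 15117, with 1 of 12 higher, Glul, 4 at an unadjusted p under 0.05, 5 changes above 0 and 7 below, and a median of -0.11. The filament gene Gfap stood at -1.25 ± 0.52 (limma adjusted p = 0.215), while bright genes such as Glul (4771 ± 1381 against 2116 ± 177, SD, n = 3 each) weigh most in the sum. Microglia markers summed to 2824 to 3206 against 1915 to 2379, with 0 of 13 (limma; 3 at an unadjusted p under 0.05). Pituitary markers summed to 708 to 1036 against 620 to 763. Ko1 stood apart there for Gh and Prl. Gh, growth hormone, read 4.609, 8.993 and 506.5 on Dap12-ko 67, 68 and Ko1 against 0.9829, 4.721 and 0.9469. Prl, prolactin, too dim to be tested, read 7.065, 9.467 and 39.41 against 1.506, 2.522 and 2.476. Within Dap12-ko, however, Cga, Fshb, Pitx1, Ghrhr and Chga were lowest on Ko1. Tshb and Lhb lay between the other Dap12-ko arrays there, and Pomc was highest on Ko1. Both Ogn probe sets and the brighter Col1a2 probe set were also highest on Ko1, and the part of pituitary tissue in them was not tested. Blood cell markers summed to 188 to 320 against 99.3 to 135. Neither list had a gene past the threshold among its 3 and 2 tested (limma; 0 and 1 at an unadjusted p under 0.05). The rest of their 10 and 9 genes measured were too dim to be tested.

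Genes that build, bind and cut the matrix were read on the brightest probe set of each. Enzymes that process and cross-link collagen had 0 of 20 past the threshold (limma; 2 at an unadjusted p under 0.05) and a median change of -0.14, against -0.09 over 11446 genes. Mia3, which loads procollagen into transport vesicles, read 372.1, 312.1 and 290.1 on Dap12-ko arrays and 517.5, 535.3 and 624.3 on Dap12-het arrays (-0.76 ± 0.19, limma adjusted p = 0.0731). Plod3, a lysyl hydroxylase, read 61.13, 105.2 and 114.4 against 193.3, 210.5 and 174.8 (-0.96 ± 0.24, limma adjusted p = 0.0789). Both were lower on every Dap12-ko array without passing. Of other basement membrane components 0 of 11 passed (limma; 3 at an unadjusted p under 0.05). Hspg2, the proteoglycan perlecan, read 121.1, 157.8 and 172.4 against 73.23, 80.33 and 67.62 (0.88 ± 0.21, limma adjusted p = 0.0671), and Agrn, agrin, changed by -0.61 ± 0.23 (limma adjusted p = 0.174).

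Of 21 receptors for collagen and laminin tested, 1 fell and 0 rose, against 1.43% of genes called in either direction, with 5 at an unadjusted p under 0.05. It was Sdc3, a neuronal heparan sulphate proteoglycan, which read 394, 269.2 and 294 on Dap12-ko arrays and 787.7, 767.4 and 689 on Dap12-het arrays (-1.20 ± 0.20, limma adjusted p = 0.0318). Itgb1, the beta subunit common to most collagen and laminin integrins, changed by 1.09 ± 0.33 (limma adjusted p = 0.113). Among 21 other proteoglycans and neural matrix genes 1 rose and 0 fell, against the same 1.43%, with 6 at an unadjusted p under 0.05. It was Ncan, neurocan, at 609.8, 659.9 and 815.8 against 239.2, 372.1 and 189.4 (1.37 ± 0.26, limma adjusted p = 0.0404). In the same list Sparcl1, a matricellular protein of astrocytes, changed by 0.59 ± 0.16 (limma adjusted p = 0.0887). Matrix proteases and their inhibitors had 0 of 19 past the threshold (limma; 5 at an unadjusted p under 0.05), with Mmp24 at 0.80 ± 0.23 (limma adjusted p = 0.104) and Mmp16 at 0.80 ± 0.24 (limma adjusted p = 0.109). Transforming growth factor beta and fibrogenic signalling had 0 of 18 (limma; 2 at an unadjusted p under 0.05), with Smad7, an inhibitor of that signal, at -0.84 ± 0.23 (limma adjusted p = 0.0898). Genes handling prostaglandin D2 and retinoids beside Ptgds had 0 of 5 (limma; 0 at an unadjusted p under 0.05). There Ptgdr, a receptor for prostaglandin D2, read 54.75, 72.13 and 12.85 against 12.74, 15.54 and 8.811 (1.00 ± 0.45, limma adjusted p = 0.241).

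Promoter windows from 250 bases before to 50 after the start were listed in RefSeq (GRCm38.p6) for 42 of the 59 genes. Their median GC content was 59.3%, against 52.7% for all promoters. The motif GGGCGG (a GC box), searched on both strands, was in 56.5% of the members' 46 windows and in 35.7% of all 32851 windows. CCAAT was in 34.8% against 37.4% and TATAAA in 13% against 13.6%. The 250 bases before the start are shown for the members with a probe set at an unadjusted p under 0.05 that are in the table, which leaves out Col1a1. Capitals mark any of these motifs on either strand, and 5′ is at the left.
Ptgds (chr2:25469750-25469999, minus strand): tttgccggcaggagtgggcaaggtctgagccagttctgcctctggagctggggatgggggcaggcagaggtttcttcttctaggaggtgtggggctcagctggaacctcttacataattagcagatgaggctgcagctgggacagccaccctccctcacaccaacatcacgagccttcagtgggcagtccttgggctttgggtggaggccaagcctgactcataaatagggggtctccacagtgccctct
Ogn (chr13:49607765-49608014, plus strand): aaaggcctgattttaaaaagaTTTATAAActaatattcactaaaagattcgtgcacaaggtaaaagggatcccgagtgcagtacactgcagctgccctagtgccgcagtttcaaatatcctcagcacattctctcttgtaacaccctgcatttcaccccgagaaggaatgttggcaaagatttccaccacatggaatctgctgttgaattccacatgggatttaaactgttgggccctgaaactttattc
Col19a1 (chr1:24587438-24587687, minus strand): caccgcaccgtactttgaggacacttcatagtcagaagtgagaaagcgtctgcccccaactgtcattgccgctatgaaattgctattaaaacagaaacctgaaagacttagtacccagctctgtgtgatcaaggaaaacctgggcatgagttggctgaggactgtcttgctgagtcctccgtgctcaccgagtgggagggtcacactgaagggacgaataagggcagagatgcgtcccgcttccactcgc
Lama5 (chr2:180225860-180226109, minus strand): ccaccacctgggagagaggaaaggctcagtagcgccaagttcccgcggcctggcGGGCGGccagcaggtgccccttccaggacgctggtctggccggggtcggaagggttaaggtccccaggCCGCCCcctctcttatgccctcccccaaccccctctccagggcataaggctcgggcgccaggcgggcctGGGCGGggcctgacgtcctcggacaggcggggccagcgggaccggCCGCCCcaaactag
Lama5 held 4 GC boxes, Ogn held TATAAA on both strands in an overlapping run at the far end from its start, and the letters searched were not in the windows of Ptgds and Col19a1.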

How the data were processed

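Total RNA (Trizol, then RNeasy) was labelled by the Affymetrix one-cycle method, per the labels' protocols. The intensity values deposited came from GCOS, the scanner software, per the submitters' processing notes. For its version, summary algorithm and detection calls, the sources used here give nothing. The authors' scaling was kept.

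Genes were named from the platform annotation where a probe set had 1 symbol (34945 of 45037 probe sets without 64 controls; 932 had several and 9160 none). Signals were transformed as log2(signal + 16). Probe sets with a mean signal above the median were tested in limma 3.58.1 (R 4.3.3; lmFit with a group term, eBayes with trend, two-sided, Benjamini-Hochberg over all 22518, threshold 0.05). Fold changes on this scale understate the change of dim probe sets. Errors are standard errors of the fit or SD with n = 3, and the number of arrays limits precision. The procedure was run on simulated data with the same spread in both groups, and the check was on the mean size of the estimated changes. The arrays differed from that setting, with a median SD of 0.373 within Dap12-ko and 0.192 within Dap12-het. The simulation thus cannot tell how reliable the calls are here.

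The members and lists were chosen with earlier results of these data known. Named were members past the threshold, the brightest and the smallest p of each family, a fixed set of collagen, laminin and proteoglycan genes, and genes whose probe sets disagreed. The 2 members of each other list with the smallest p were to be named too, but this was followed only in part. Left out were, for example, Kl and Folr1 of choroid plexus, Krt5 and Sp7 of the bone list, and C1qa and P2ry12 of microglia. A few more genes, such as Ttr and Gfap, were chosen as examples with their values in view. List counts used the brightest probe set of each gene. Alternatives changed the scaling, added constant, level filter, variance model, arrays and probe set per gene.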

Additional observations from a re-analysis of the deposited data

How the results depend on the processing

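Members were called in 3 alternatives and in none of the others run. Array weights called 3, leaving out 1 array at a time 0 to 3, and leaving out Dap12-ko 67 and 68 together 2. No paired analysis was possible because the groups share no replicate numbers. Of all probe sets, 466 were called, against 127 with quantile normalization, 124 without a level filter, 172 without a variance trend, 4971 with array weights, 101 with 1 probe set per gene, and 0 to 5433 with 1 array left out. With arrays centred on their medians, 102 of 580 calls were higher, against 297 of 466. A filter on mean log2 signal, chosen after seeing the data, gave 445 calls and 0 of 43 members. The members' median of 0.13 became -0.07 with quantile normalization and -0.27 with centred arrays, and lay between -0.05 and 0.22 otherwise. Changes of sign touched 20 of 33 named members. Where 1 value or range follows for a gene with several tested probe sets, it belongs to a probe set whose sign changed. These were the dimmer ones of Col1a1, Col4a1 and Ptgds, the brighter one of Col1a2 and the dimmest tested one of Fmod. Over the alternatives, the other Col1a1 probe set ran from 0.45 to 1.41 and the other Col1a2 probe set from 0.38 to 1.23. With 64 added, Col6a3 stood at 0.00 and Lamc1 at 0.01. With array weights, Col6a2 stood at -0.10 and -0.20, Col8a1 at 0.04, Col9a3 at 0.01, Dcn at -0.20, Fmod at -0.05, -0.10, -0.31 and -0.32, Fn1 at 0.01, Lamc1 at 0.28 and the dimmer Ptgds probe set at -0.04. With centred arrays, Col25a1 stood at -0.20, Col4a1 at -0.11, Col6a1 at -0.27, Col6a2 at -0.25 and -0.32, Dcn at -0.11, Fmod at -0.29 and Ptgds at -0.08. With quantile normalization, Col6a1 stood at -0.15, Col6a2 at -0.05 and -0.26, Fmod at -0.26 and Fn1 at 0.02. Without Dap12-ko 67 and 68 together, Col1a1 stood at 0.21, Col1a2 at 0.96, Col25a1 at -0.32, Col4a1 at -0.20, Col6a3 at 0.31 and Fmod at -0.05. With 1 array left out, Col1a1 ran from -0.41 to 0.32, Col1a2 from -1.13 to 0.16, Col25a1 from -0.05 to 0.45, Col6a1 from -0.33 to 0.61, Col6a2 from -0.05 to 0.38 and from -0.09 to 0.31, Col6a3 from -0.17 to 0.20, Col8a1 from -0.28 to 0.16, Col9a3 from -0.82 to 0.20, Fmod from -0.16 to 0.29, Fn1 from -0.19 to 0.13, Lamb2 from -0.55 to 0.03, Lamc1 from -0.25 to 0.26 and Nid1 from -0.47 to 0.03. The cause was not tested. Dim signal limits 79 of the 119 members.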

Other observations

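The 79 members too dim to be tested were set against all 22519 such probe sets. Groups did not overlap for 13 with Dap12-ko higher (16.5%, against 18.6% of all) and for 1 with Dap12-ko lower (1.27%, against 2.33%). Among them, Col20a1, a fibril-associated chain, read 80.12, 24.53 and 4.3 on Dap12-ko arrays and 2.587, 3.32 and 2.678 on Dap12-het arrays on its brightest probe set. Col14a1, a fibril-associated chain of fibroblasts, read 41.51, 43.69 and 21.22 against 17.56, 14.62 and 3.029. Col7a1, the chain of anchoring fibrils, read 17.47, 30.51 and 20.39 against 13.6, 13.39 and 6.511. The member with Dap12-ko lower was a dimmer probe set of Col23a1, a transmembrane collagen, at 6.141, 3.373 and 12.02 against 20.58, 27.6 and 18.54. The first 3 were picked after their values were seen. The lower quartile of all signals was 7.622 to 11.15 on Dap12-ko arrays and 5.48 to 6.657 on Dap12-het arrays.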
